A study of Mus musculus with 24 samples.

Results

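Anti-CD3, an antibody against the CD3 chains of the T cell receptor complex, was compared at 3 h with no stimulation in vehicle-treated mice. The comparison used 8 of the 24 bulk RNA sequencing libraries of the series: the 4 libraries labelled as vehicle 3 h after anti-CD3 and the 4 labelled as naive vehicle. All 8 came from male C57BL/6 mice 11 weeks old, with no transgene or deletion named in the labels, and all had received an empty vehicle in place of the herbicide propyzamide that the series tests. The unstimulated group is called naive in the labels, and the stimulated group differs from it by the antibody and the 3 h that followed. Total RNA was turned into full-length cDNA libraries (SMART-seq2). The labels do not name the tissue, a cell sort, the antibody dose or its route, or say whether 1 library is 1 animal, so p-values measure only the spread between these libraries, which may be technical. According to its title, the series studies mouse T cells in a model of inflammatory bowel disease.

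The CD3 chains carry the signal of the T cell receptor, and an antibody that binds them activates T cells whatever antigen their receptors recognise. Activated T cells release cytokines, among them interferon-gamma, which acts on macrophages, epithelial cells and other neighbours and turns on guanylate-binding proteins, immunity-related GTPases and chemokines. In the small intestine, anti-CD3 is known to injure the crypt epithelium within hours. Paneth cells sit at the crypt base and secrete alpha-defensins, lysozyme and lectins from their granules.

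Total estimated counts ran from 1472881 to 2023575 in the unstimulated libraries and from 534663 to 1697401 at 3 h. Named protein-coding genes, meaning those with a symbol of their own that are neither odour or pheromone receptors nor encoded in mitochondria, held 75885 to 160754 counts per unstimulated library and 34578 to 77023 at 3 h. A group of 12 gene models related by sequence to Gm10800, here called satellite-like, held 75.2% ± 2.74 of counts unstimulated and 80.2% ± 3.85 at 3 h (SD, n = 4, exact two-sided permutation p = 0.114). The precision of single genes is therefore that of small counts. In an unstimulated library, 3 counts were worth 1.31 to 2.48 CPM (counts scaled to a common library size with TMM factors), and at 3 h 2.28 to 5.19. Log CPM of libraries correlated at 0.718 to 0.807 within the unstimulated group, 0.520 to 0.661 within the 3 h group and 0.551 to 0.715 between the groups. Both groups carry the same i5 index in the labels.

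The libraries did not look like purified T cells. The T cell markers Cd3e, Cd3d, Cd3g, Trac and Cd2 summed to 96 counts over the 4 unstimulated libraries and 49 over the 4 at 3 h, with all 5 detected. The Paneth cell markers Lyz1, Itln1, Defa24, Defa30 and Mptx2 summed to 14083 and 2179, plasma cell markers to 3555 and 754, and intestinal epithelial markers to 1085 and 348, from totals of 7091686 and 4263704 counts.

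The vehicle 3 h libraries were unequal. Replicate 3 was the lowest of the 4 in 18 of the 20 leading higher genes, against 31% of all tested named genes, and had 0 counts of Ccl24, Cxcl10, Serpina3g and Igtp. Replicate 4 was the highest in 16 of those 20, against 29.6% of all. Replicate 3 also had the highest summed level of enterocyte genes, 235 CPM against 77.0 to 95.1 in the other 3. Without replicate 3, edgeR called 11 genes higher, which kept the 7 called with it, and 0 lower.

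Across named protein-coding genes most fold changes at 3 h were small, and more were negative than positive. Changes of 4-fold or more were found in 23 tested named genes that were higher and 33 that were lower. The edgeR quasi-likelihood test covered 3799 genes, 2465 of them named and protein-coding. Of these 2465, 969 had a positive and 1496 (60.7%) a negative log2 fold change, with a median of -0.17 and quartiles of -0.62 and 0.22. The other 1334 tested genes had a median of 0.09. The size of this shift depended on the scaling and on 1 library: the median of named genes was -0.08 with named genes scaled alone, -0.08 without unstimulated replicate 2 and -0.39 with no filter on low counts. By level of expression, the medians were -0.25, -0.17 and -0.09 in the lowest, middle and highest of 3 equal parts of named genes.

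At an adjusted p of 0.05 or less, 7 genes were called higher (0.184% of the tested genes) and 4 lower (0.105%), all named and protein-coding. RLE normalization gave 7 higher and 7 lower. A fit of the 8 libraries alone gave 2 and 24. Of the 7 higher genes, Acod1 passed the filter on low counts in that fit and was called there, and the other 6 entered the test only with the 24 libraries of all groups. limma-voom called 1 gene higher, Sprr2a2, and 17 lower, so that it called 0 of those 7 genes and all 4 of the lower ones. In edgeR, when each of the 8 libraries was left out in turn, Gbp2 and S100a9 stayed called in all 8 fits. Ccl24 was lost without replicate 4 at 3 h, Gzmb without unstimulated replicate 2 and Acod1 without unstimulated replicate 3. Serpina3g and Selenop stayed called in 2 of the 8 fits, Cxcl10 and Itln1 in 1, and Defa23 and Defa39 in 0. The count of higher genes was 4 without unstimulated replicate 2 or 3 or without replicate 4 at 3 h, and the count of lower genes was 0 or 1 in each of these fits. At an unadjusted p of 0.05 or less, 49 named genes were higher (1.99% of 2465) and 136 lower (5.52%). The 4 libraries of one group lay entirely above those of the other in 38 named genes that were higher at 3 h (1.54%) and in 119 that were lower (4.83%). Over all tested genes those shares were 1.5% and 3.79% for groups that did not overlap, and 1.95% and 4.29% at an unadjusted p of 0.05 or less. Variation between replicates beyond counting error, estimated over all 24 libraries, was 46.4% (common dispersion 0.215) and may be technical or biological.

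**Figure D1:**
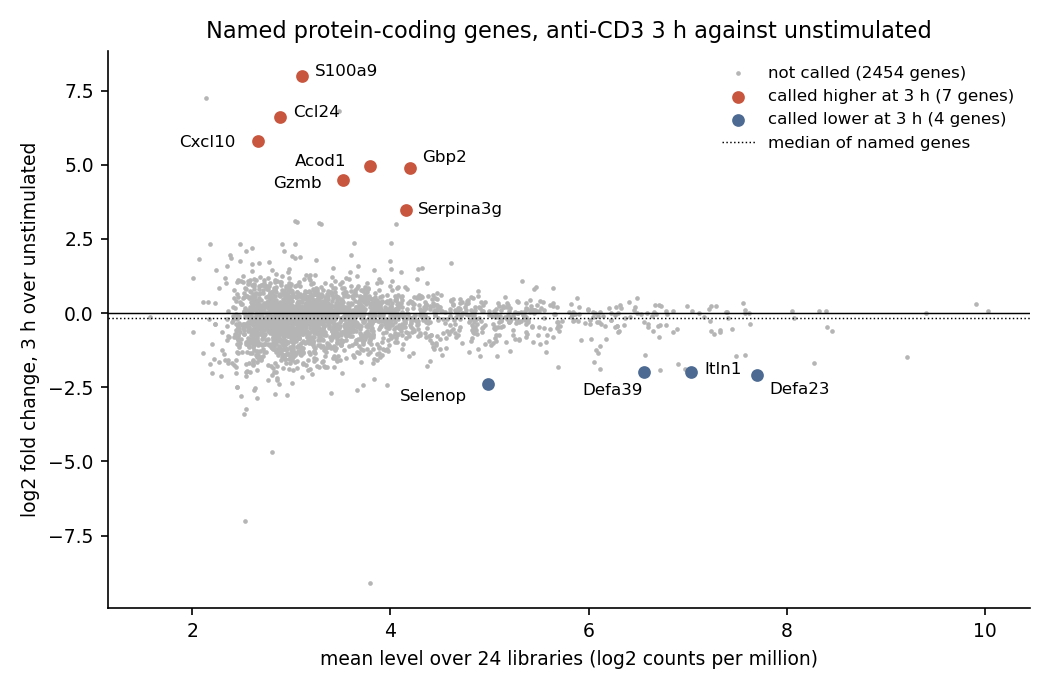
Each point is 1 of the 2465 tested named protein-coding genes, by its mean level over 24 libraries (log2 CPM) and its log2 fold change at 3 h over unstimulated. The 7 called higher genes stand above 3 on the log2 scale, the 4 called lower genes lie between -2.40 and -1.99, and the dotted line marks the median of -0.17. The fitted value of S100a9, which had 0 counts unstimulated, depends on the prior count.

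Interferon-inducible GTPases, which attack the membranes around intracellular pathogens, were led by Gbp2, which rose. Over all 21 members the summed level was 36.3, 53.0, 60.5 and 42.6 CPM unstimulated and 104, 91.3, 44.7 and 242 at 3 h, so 3 of the 4 libraries at 3 h lay above the unstimulated range and replicate 3 within it. Of 9 tested members, 1 was called, 3 had an unadjusted p of 0.05 or less and all 9 had positive fold changes, with a median of 1.51. Only 1 of the 9 passed the filter on the 8 compared libraries alone, so the signs and median of the 9 depend on which members other groups brought into the test. The 12 untested members summed to 137 counts unstimulated and 70 at 3 h, from totals of 7091686 and 4263704. Gbp2, a guanylate-binding protein (chromosome 3, 142620602 to 142638008, plus strand, GRCm38), had 0, 0.877, 1.54 and 1.14 CPM in the unstimulated libraries, or 7 counts in all. At 3 h it had 29.4, 16, 3.94 and 69.4 CPM, or 96 counts. The lowest 3 h library lay above the highest unstimulated one, and Gbp2 rose by 4.87 ± 0.84 on the log2 scale (edgeR adjusted p = 0.00442). Guanylate-binding proteins are close paralogs, and reads shared between them can be split between members.

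Immunity-related GTPases followed with larger p-values. Ifi47 had 1.65, 1.31, 2.05 and 2.84 CPM unstimulated and 17.3, 11.4, 1.31 and 35.3 at 3 h (log2 fold change 3.02 ± 0.72, adjusted p = 0.0653). Igtp, which encodes Irgm3, had 0, 0.877, 2.56 and 0.568 CPM unstimulated and 13.8, 8.37, 0 and 16.4 at 3 h (3.08 ± 0.86, adjusted p = 0.153). In both, the other 3 libraries at 3 h lay above the unstimulated range and replicate 3 did not.

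Promoters are shown because most of the list's members with a known window share a motif there. RefSeq windows of GRCm38.p6, from 250 bases before to 50 after the annotated start, were available for 11 of the 21 GTPases. An interferon-stimulated response element, here GAAA, any 2 bases and GAAA again on either strand, occurred in the windows of 10 of these 11 genes, among them Gbp2, Igtp, Irgm1, Tgtp1 and Tgtp2. It occurred in 3.99% of all 27025 genes with a window and in 4.53% of the tested named genes. A gamma-activated site, TTCNNNGAA on either strand, was in 6 of the 11 genes and in 9.55% of all. Among the 20 leading higher genes, 17 had a window: 3 held the first motif, 5 the second and 4 the NF-kappaB motif, which 5.14% of all genes held. Of the tested named genes, 8.66% held the second motif and 7.25% the NF-kappaB motif. The 17 of the 20 leading lower genes with a window held the first motif in 1 gene (Selenop) and the other 2 motifs in 0. A match is a description of the letters and not a mapped site. The windows of Ifi47 and of the called genes Acod1 and S100a9, and a second window of Irf1, held none of these motifs and are not printed. In the windows of the called genes Gbp2 and Cxcl10 and of Igtp and Irf1, capitals mark the matches, including the gamma-activated sites in Igtp and Irf1 and the NF-kappaB motifs in Cxcl10 and Irf1. Gbp2 lies at chr3:142620413-142620712 (plus strand), Igtp at chr11:58199306-58199605 (plus), Cxcl10 at chr5:92348840-92349139 (minus) and Irf1 at chr11:53769764-53770063 (plus), each read 5′ to 3′ on the gene's strand.
Gbp2: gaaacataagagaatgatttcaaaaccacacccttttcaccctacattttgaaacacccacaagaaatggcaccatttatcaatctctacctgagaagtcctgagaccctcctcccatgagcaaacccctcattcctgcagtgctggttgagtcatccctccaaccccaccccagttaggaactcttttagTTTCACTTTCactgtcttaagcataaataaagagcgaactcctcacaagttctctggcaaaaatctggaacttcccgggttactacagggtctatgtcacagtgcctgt
Igtp: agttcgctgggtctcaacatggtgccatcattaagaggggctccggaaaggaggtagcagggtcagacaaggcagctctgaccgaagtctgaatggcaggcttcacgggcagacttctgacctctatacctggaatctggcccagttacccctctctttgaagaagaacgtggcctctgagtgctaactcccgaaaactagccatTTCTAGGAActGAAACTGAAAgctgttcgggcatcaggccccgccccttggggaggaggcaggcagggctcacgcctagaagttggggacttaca
Cxcl10: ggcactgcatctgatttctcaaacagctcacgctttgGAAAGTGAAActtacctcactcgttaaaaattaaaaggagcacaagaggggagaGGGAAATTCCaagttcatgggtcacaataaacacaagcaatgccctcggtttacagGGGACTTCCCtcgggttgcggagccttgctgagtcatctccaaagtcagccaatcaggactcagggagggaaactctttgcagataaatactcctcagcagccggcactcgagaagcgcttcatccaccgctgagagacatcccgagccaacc
Irf1: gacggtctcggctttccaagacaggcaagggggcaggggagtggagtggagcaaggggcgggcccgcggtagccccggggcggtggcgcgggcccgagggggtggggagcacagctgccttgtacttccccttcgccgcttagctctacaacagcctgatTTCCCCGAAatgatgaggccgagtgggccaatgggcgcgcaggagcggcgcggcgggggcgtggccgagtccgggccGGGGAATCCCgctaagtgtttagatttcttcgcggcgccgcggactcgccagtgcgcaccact

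Cxcl10 and Ccl24 led the chemokines, the secreted attractants of leukocytes. Cxcl10, which draws CXCR3-bearing T cells (chromosome 5, 92346638 to 92348889, minus strand), had 1 count in the 4 unstimulated libraries and 35 at 3 h, a ratio of 73.2 with a counting interval of 12.3 to 2973. Its 3 h levels were 19.0, 6.85, 0 and 18.9 CPM (adjusted p = 0.0373). Ccl24, an eosinophil attractant made by macrophages (chromosome 5, 135569937 to 135573049, minus strand), had 1 and 60 counts, a ratio of 125.5 (21.7 to 5038), with 19.0, 6.09, 0 and 51.7 CPM at 3 h (adjusted p = 0.00442). Both were at 0 in replicate 3, so neither separated the groups completely. These intervals cover counting error only.

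The other chemokines were less clear. Of 8 tested members, 2 were called, 6 were positive and 2 negative, with a median of 1.37, which was 0.53 without replicate 4 at 3 h. Of the 8, 2 passed the filter on the 8 compared libraries alone. Ccl4, an attractant of monocytes and T cells, had 4.95, 4.82, 0 and 4.54 CPM unstimulated and 13.8, 5.33, 2.63 and 30.3 at 3 h (1.84 ± 0.78, adjusted p = 0.655). The 22 members under the filter summed to 164 and 134 counts. Among them, chosen after their values were seen, the interferon-gamma-induced chemokine Cxcl9 had 2 and 15 counts and the monocyte attractant Ccl2 had 0 and 10.

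Among interferon signalling genes, the transcription factor Irf1 stood out and a receptor chain had a negative fold change. Irf1 had 9.91, 11.0, 4.61 and 9.65 CPM unstimulated and 22.5, 20.5, 13.1 and 44.2 at 3 h. All 4 libraries at 3 h lay above the unstimulated ones (1.51 ± 0.48, adjusted p = 0.317). Ifngr1, the ligand-binding chain of the interferon-gamma receptor, had 7.17 to 23.7 CPM unstimulated and 1.31 to 6.31 at 3 h (-1.58 ± 0.64, adjusted p = 0.641). The list of 12 tested members had 8 positive and 4 negative fold changes and a median of 0.61. The 10 other tested interferon-stimulated genes, such as Cd274, which encodes PD-L1 (1.40 ± 0.68), had 8 positive and 2 negative values and a median of 1.04, with 0 called. That median was 0.57 without replicate 4 at 3 h, and 2 of the 10 passed the filter on the 8 compared libraries alone. In MHC class I and its peptide loading, Tap1, a peptide transporter, was at 1.45 ± 0.70 (adjusted p = 0.774), while the median of 17 genes was 0.02 with 9 positive and 8 negative, and ran from -0.19 without replicate 4 at 3 h to 0.31 without unstimulated replicate 2.

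Gzmb, which encodes granzyme B, and Serpina3g rose in a list of 15 cytotoxic effector genes, of which 3 were tested. Serpina3g encodes a serpin that inhibits cathepsin proteases, so of the 2 called members only Gzmb encodes a granzyme. Gzmb (chromosome 14, 56258838 to 56262260, minus strand) had 0, 0.438, 1.02 and 1.14 CPM unstimulated, or 5 counts, and 27.7, 6.85, 3.94 and 30.3 at 3 h, or 52 counts. The groups did not overlap, and the change was 4.50 ± 0.83 (adjusted p = 0.00665). Serpina3g (chromosome 12, 104236245 to 104241939, plus strand) had 1.65, 0.877, 1.02 and 5.68 CPM unstimulated and 25.9, 29.7, 0 and 48.0 at 3 h (3.49 ± 0.78, adjusted p = 0.0373). Replicate 3 at 3 h, at 0, lay below all unstimulated libraries. Gzma, another granzyme, had 2.48, 4.38, 1.54 and 1.70 CPM unstimulated and 22.5, 1.52, 1.31 and 17.7 at 3 h (1.95 ± 0.85, adjusted p = 0.68). Of the 3 tested members, 0 passed the filter on the 8 compared libraries alone. The 12 untested members summed to 127 counts unstimulated and 67 at 3 h. Over all 15 genes the summed level was 19.8 to 25.1 CPM unstimulated and 96.9, 54.0, 11.8 and 132 at 3 h, so the groups overlapped.

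Genes of T cells themselves were few and gave no calls. In the receptor complex and its proximal signalling, 5 of 18 genes were tested, with 1 positive and 4 negative values, and the summed level was 41.5 ± 12.6 CPM unstimulated and 39.2 ± 12.2 at 3 h (SD, n = 4). The median of the 5 was -0.81, and it ran from -1.78 without replicate 3 at 3 h to -0.40 without replicate 4. Of these 5 genes, 0 passed the filter on the 8 compared libraries alone, where the 1 member tested was positive (0.41). The sign of the median therefore depends on which members other groups brought into the test. Lck, the kinase that starts receptor signalling, had 4.13 to 7.01 CPM unstimulated and 1.73 to 3.04 at 3 h, groups that did not overlap (-1.10 ± 0.53, adjusted p = 0.787). Of 5 tested activation genes, the co-inhibitory receptor Lag3 had 0 to 2.05 CPM unstimulated and 2.28 to 5.26 at 3 h (1.68 ± 0.72, adjusted p = 0.655), and Cd69, an early activation antigen, was at -0.11. Tested genes of naive lymphocytes had a median of -0.54, with 1 positive and 5 negative, and -0.30 without unstimulated replicate 4 or -0.87 without replicate 1 at 3 h.

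T cell cytokines were near the limit of detection. None of the 16 passed the filter, and together they had 57 counts unstimulated and 45 at 3 h. Their summed level was 4.13, 8.77, 8.71 and 8.51 CPM unstimulated and 13.8, 14.5, 14.5 and 8.83 at 3 h, groups that did not overlap by a narrow margin. Il17f contributed 13 and 18 counts and Il22 7 and 15, both chosen after their values were seen. Ifng had 0 counts in all 8 libraries, so its level cannot be told from 0 at this depth.

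Acod1 and S100a9 rose among products of inflammatory macrophages and neutrophils. Acod1 (chromosome 14, 103046977 to 103056573, plus strand), which makes itaconate in activated macrophages, had 0, 2.63, 0.512 and 0 CPM unstimulated, or 7 counts. At 3 h it had 36.3, 21.3, 10.5 and 54.3 CPM, or 100 counts, with no overlap (4.97 ± 0.93, adjusted p = 0.00665). All 5 tested members of the inflammatory myeloid list were positive, with a median of 1.41, and 0.59 without replicate 4 at 3 h. Il1rn, the interleukin-1 receptor antagonist, was at 1.76 ± 0.79 (adjusted p = 0.71), and replicate 4 held 79.5 of its CPM against 5.26 to 17.3 in the other 3. The summed level of the list was 57.4 to 78.4 CPM unstimulated and 82.8 to 269 at 3 h. Under the filter, Osm, a cytokine of the interleukin-6 family chosen after its values were seen, had 5 and 36 counts.

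S100a9 and S100a8, the subunits of calprotectin in neutrophils and monocytes, were absent from the unstimulated counts. S100a9 (chromosome 3, 90692632 to 90695721, minus strand) had 0 counts in all 4 unstimulated libraries and 5.19, 12.9, 6.57 and 27.8 CPM at 3 h. Its 47 counts against a floor of 3 over the group make it at least 32.8-fold higher (adjusted p = 0.00442). S100a8 had 0 and 27 counts, at least 18.8-fold higher, with 8.65, 6.85, 1.31 and 15.1 CPM at 3 h (adjusted p = 0.0653). Of the 5 tested neutrophil genes 1 was called and all were positive, with a median of 1.89, also with both S100 genes at their bounds. Only 1 of the 5 passed the filter on the 8 compared libraries alone, and the 12 untested neutrophil genes summed to 87 counts unstimulated and 51 at 3 h. Chil3, a chitinase-like protein, was at 1.89 ± 0.80 (adjusted p = 0.655), but the chemokine receptor Cxcr2 was at 0.21 and Retnlg at 0.09. The neutrophil-specific Ly6g had 2 counts unstimulated and 0 at 3 h.

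Genes of resident macrophages went the other way. Selenop, a secreted selenium carrier (chromosome 15, 3268547 to 3280508, plus strand), had 62.7, 51.3, 23.6 and 51.6 CPM unstimulated and 3.46, 8.37, 5.26 and 17.7 at 3 h. The groups did not overlap, and Selenop fell by 2.40 ± 0.52 on the log2 scale (adjusted p = 0.0358). Apoe, the lipid carrier, had 173, 151, 73.3 and 170 CPM and then 58.8, 25.1, 17.1 and 51.7 (-1.91 ± 0.50, adjusted p = 0.108). Of 7 tested genes 6 were negative, with a median of -1.19, which was -0.77 without replicate 3 at 3 h, and 1 was called. The exception was Cd14, the co-receptor for lipopolysaccharide, with 4.13, 0.877, 0 and 1.70 CPM unstimulated and 10.4, 9.13, 2.63 and 30.3 at 3 h (3.09 ± 0.85, adjusted p = 0.145). The complement gene C1qb was at -1.65 ± 0.71. In bulk libraries, fewer cells of a type and less RNA per cell cannot be told apart.

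**Figure D2:**
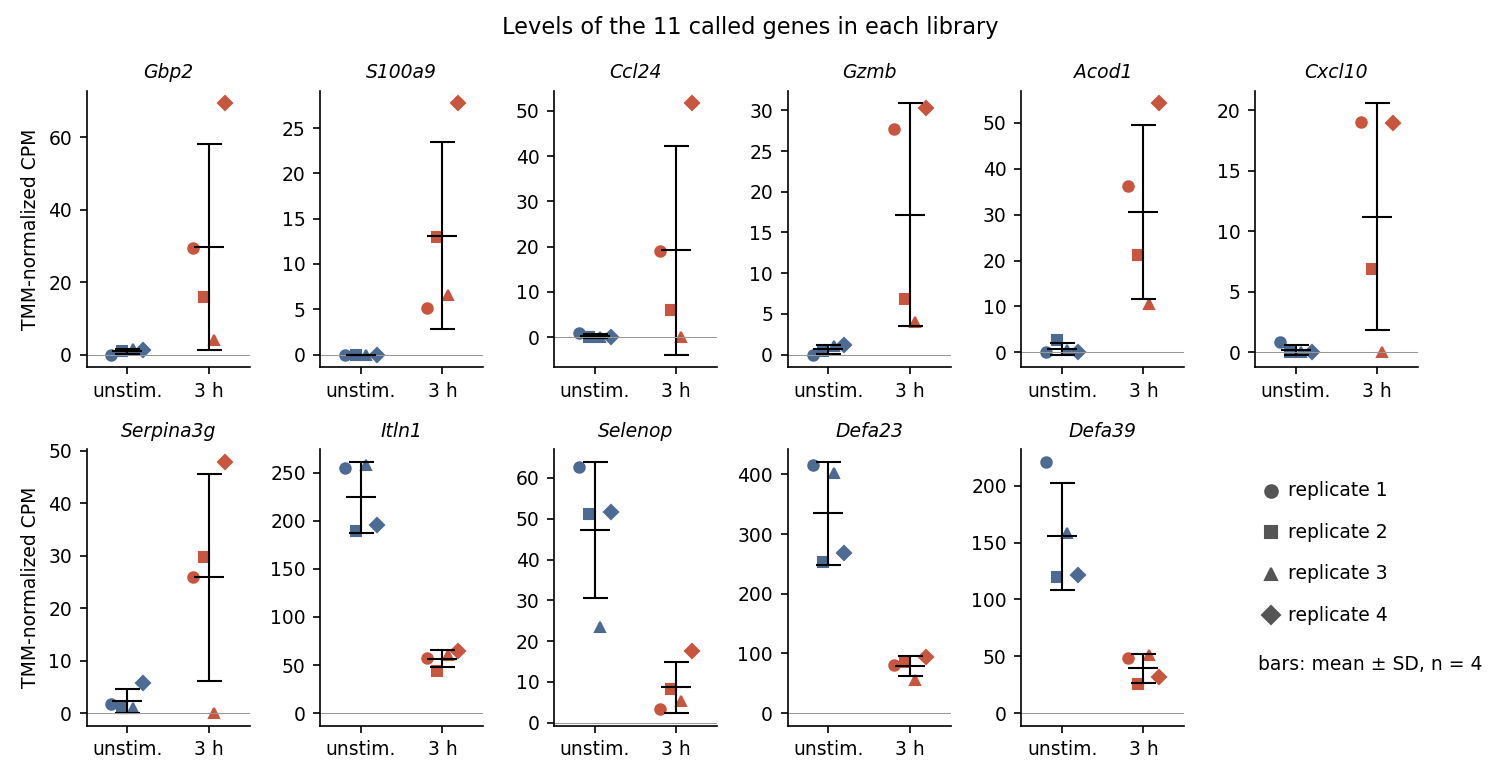
TMM-normalized CPM of the 11 called genes in each of the 4 unstimulated (blue) and 4 vehicle 3 h libraries (red), with symbols for replicates and bars for mean ± SD. Replicate 3 at 3 h is at 0 for Ccl24, Cxcl10 and Serpina3g, while all 4 libraries at 3 h lie below the unstimulated ones for Itln1, Selenop, Defa23 and Defa39.

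Itln1 fell among Paneth cell products, and the summed level of the list was lower in all 4 libraries at 3 h. Itln1, an intelectin that binds microbial glycans (chromosome 1, 171518122 to 171535294, minus strand), had 255, 189, 258 and 196 CPM unstimulated and 57.1, 44.1, 60.5 and 64.4 at 3 h. These are 1590 and 188 counts, and the change was -1.99 ± 0.42 (adjusted p = 0.0297). Lyz1, Paneth cell lysozyme (chromosome 10, 117287797 to 117292868), had 520, 419, 682 and 450 CPM and then 163, 132, 198 and 159 (-1.67 ± 0.40, adjusted p = 0.0653). Mptx2, a mucosal pentraxin, was at -2.58 ± 0.77 (adjusted p = 0.21), and Mmp7, the protease that activates alpha-defensins, at -2.01 ± 0.61 (adjusted p = 0.246).

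The list did not move as one. Of 11 tested Paneth cell products 9 were negative, 1 was called lower, and the groups did not overlap for 5 lower genes. Among all tested genes, 0.105% were called lower and 3.79% were lower without overlap. Reg3g, an antibacterial lectin made across the epithelium and chosen here after its values were seen, had 6.61, 13.6, 16.9 and 2.84 CPM unstimulated and 27.7, 44.9, 30.2 and 26.5 at 3 h (1.68 ± 0.66, adjusted p = 0.613). Its relative Reg3b was at 1.49 ± 0.78, with groups that overlapped. The summed level of the list was 916, 749, 1110 and 773 CPM unstimulated and 313, 309, 384 and 300.3 at 3 h, and the ratio of means was 0.368, or 0.409 relative to named protein-coding counts.

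Alpha-defensins, the antimicrobial peptides of Paneth cell granules, had the lowest median of all lists with 5 or more tested members. Of 22 tested members 18 were negative, 2 were called, 14 were lower at an unadjusted p of 0.05 or less, and 13 did not overlap between groups, with a median of -1.46. Among all tested genes, 0.105% were called lower, 4.29% were lower at that unadjusted p and 3.79% were lower without overlap. The members share much of their sequence, so these counts are not separate observations. Defa23 (chromosome 8, 21055047 to 21056016, plus strand) had 416, 253, 403 and 268 CPM unstimulated and 81.3, 85.2, 55.2 and 94.6 at 3 h (-2.08 ± 0.46, adjusted p = 0.0373). Defa39 (chromosome 8, 21702519 to 21703645, minus strand) had 221, 120, 159 and 121 CPM and then 48.4, 25.9, 51.3 and 31.5 (-2.0 ± 0.45, adjusted p = 0.0374). Defa24, with the most counts of the family, had 1138, 758, 1021 and 809 CPM and then 443, 261, 330 and 294 (-1.49 ± 0.40, adjusted p = 0.129).

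Single defensins are uncertain, since a median of 94.4% of the 31-base stretches in a tested member also occurred in another alpha-defensin (51.2% to 100%). Defa32 had 0, 52.2, 0 and 60.2 CPM unstimulated and 0 in all 4 libraries at 3 h. Defa37 had 0 counts in every unstimulated library and 0, 0, 1.31 and 22.7 CPM at 3 h, chosen after its values were seen. The sum over the family does not depend on this split between members. It was 3906, 2559, 3591 and 2982 CPM unstimulated and 1472, 874, 1231 and 986 at 3 h, with a ratio of means of 0.350.

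Other epithelial genes were lower in part. The tight junction proteins Cldn4 (-2.49 ± 0.91, adjusted p = 0.473) and Cldn3 (-1.83 ± 0.88, adjusted p = 0.774) and the epithelial transcription factor Elf3 (-1.48 ± 0.63, adjusted p = 0.655) did not overlap between groups. Elf3 had 19.8, 12.7, 15.4 and 15.3 CPM unstimulated and 1.73, 6.85, 10.5 and 2.52 at 3 h. Of 15 tested identity and junction genes 10 were negative, with a median of -0.47, which was -0.24 without unstimulated replicate 1 and -0.28 without replicate 4 at 3 h, while Epcam was at -0.77 and Krt19 at 0.13.

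Enterocyte genes separated replicate 3 from the other libraries at 3 h. Their summed level was 201, 185, 166 and 232 CPM unstimulated and 95.1, 82.9, 235 and 77.0 at 3 h, so replicate 3 was at the unstimulated level and the other 3 below it. Of 12 tested absorption and lipid genes 11 were negative, with a median of -0.85 and 0 called, and the median was -1.37 without replicate 3 at 3 h. Fabp1, the fatty acid binding protein, had 21.0 to 36.3 CPM unstimulated, 80.2 in replicate 3 at 3 h and 6.85 to 24.0 in the other 3. Goblet cell genes were mixed, with 2 of 6 positive, among them Agr2, a mucin folding factor (1.96 ± 0.94, adjusted p = 0.776). The 2 tested crypt base and stem cell genes went opposite ways. Olfm4 was at -0.50 and Cd44 at 1.23 ± 0.57 (adjusted p = 0.758), with groups that overlapped for Cd44.

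Antibody genes were lower at 3 h. All 11 tested genes of plasma cells and secreted immunoglobulin were negative, with a median of -1.24 and 0 called. Jchain, which joins IgA and IgM into polymers, had 79.3, 99.5, 83.5 and 117 CPM unstimulated and 39.8, 35.0, 31.5 and 54.3 at 3 h (-1.24 ± 0.54, adjusted p = 0.671). Igha, the IgA heavy chain, had 419, 344, 318 and 518 CPM and then 171, 186, 90.7 and 249.8 (-1.20 ± 0.62). Neither overlapped between groups. The 3 lambda constant genes Iglc1, Iglc2 and Iglc3, of which Iglc2 and Iglc3 are near-identical, had -1.96 ± 0.68, -1.67 ± 0.59 and -1.5 ± 0.54. The summed level of the list was 695 to 1085 CPM unstimulated and 259 to 488 at 3 h. Variable segments, of which 8 of 348 were tested, were all negative (median -1.27), and their sum was 337 to 449 CPM and then 114 to 225.

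B cell and antigen presentation genes were negative by smaller amounts. Of 15 tested B cell genes 14 were negative, with a median of -0.66, which was -0.31 without unstimulated replicate 2. Ighd, the IgD heavy chain of naive B cells, had 21.5, 30.2, 13.8 and 15.3 CPM unstimulated and 8.65, 6.85, 0 and 10.1 at 3 h (-1.66 ± 0.55, adjusted p = 0.364), and Cd79a was at -1.26 ± 0.53. All 11 MHC class II genes were negative, with a median of -0.58, and replicate 3 was the lowest library in 9 of them (median -0.37 without it). H2-DMb1, a peptide editor, was at -2.41 ± 0.84 (adjusted p = 0.447), and H2-Ab1, a chain of the class II molecule itself, at -0.46.

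Mitochondrially encoded genes were lower in every library at 3 h. All 16 tested members were negative, and the median was -1.18, with 0 called. Of the 16, 12 did not overlap between groups, against 3.79% lower without overlap among all tested genes. mt-Co1, a subunit of cytochrome c oxidase, had 2217, 2872, 3999 and 3094 CPM unstimulated and 1168, 1200, 774 and 1749 at 3 h (-1.32 ± 0.32, adjusted p = 0.08). Their share of all counts was 3.19% ± 0.855 unstimulated and 1.14% ± 0.336 at 3 h (SD, n = 4, exact two-sided permutation p = 0.0286, the smallest that 4 against 4 allows, and 0.114 adjusted over 4 shares). Nuclear genes of the respiratory chain had 46 of 54 negative values but a smaller median of -0.40, and -0.26 without replicate 2 at 3 h. The cytosolic ribosomal proteins had 57 of 78 negative with a median of -0.23, which was -0.001 without unstimulated replicate 2.

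Immediate early genes, which rise within minutes of receptor signalling, had mostly negative fold changes at 3 h. Of 12 tested, 11 were negative, with a median of -0.45 and 0 called. That median was -0.19 without replicate 2 at 3 h, -0.28 without unstimulated replicate 2 and -0.84 without replicate 4 at 3 h. Fos had 57.0, 99.9, 57.9 and 77.8 CPM unstimulated and 27.7, 35.0, 36.8 and 55.5 at 3 h, all below the unstimulated libraries (-0.91 ± 0.46, adjusted p = 0.845). NF-kappaB genes had a median of 0.02, which ran from -0.29 without replicate 4 at 3 h to 0.22 without unstimulated replicate 1, with Icam1, an adhesion molecule, at 1.23 ± 0.59 (adjusted p = 0.774). Lysosomal genes had 9 of 12 negative and a median of -0.59 (-0.94 without replicate 4 at 3 h), led by Grn, progranulin (-1.42 ± 0.55). Translation factors (median 0.07), proteasome subunits (-0.06), actin cytoskeleton genes (-0.16), chaperones (-0.18) and glycolytic enzymes (-0.25) lay near the median of named genes, with 0 called in each. These small medians had no stable sign apart from that of glycolytic enzymes, which was -0.15 without replicate 3 and -0.47 without replicate 4 at 3 h. Without unstimulated replicate 2 the chaperones were at 0.18 and the proteasome at 0.09, without replicate 3 at 3 h actin genes were at 0.10, and without replicate 1 at 3 h translation factors were at -0.19.

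Glutathione, heat shock and cell cycle genes gave no calls either. Cat, catalase, was at -1.35 ± 0.55 and Gpx4, a glutathione peroxidase, at -1.74 ± 0.82, in a stress list with a median of -0.47 over 10 genes. Dnajb1 and Hspe1, chaperone cofactors, were at -2.21 ± 0.85 and -1.82 ± 0.84. Replication and proliferation genes had 11 of 15 negative and a median of -0.30 (-0.53 without replicate 3 at 3 h and -0.15 without unstimulated replicate 2), while the cyclin Ccnd2 was at 1.19 ± 0.64 (adjusted p = 0.888). Only 4 of the 15 passed the filter on the 8 compared libraries alone. In that fit 2 were positive and 2 negative, with a median of 0.11. Endoplasmic reticulum stress genes had a median of -0.37, which was -0.10 without replicate 3 at 3 h and -0.21 without unstimulated replicate 2. Cell death genes, of which 4 of 23 were tested, had a median of 0.06, and -0.11 without unstimulated replicate 4.

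**Figure D3:**
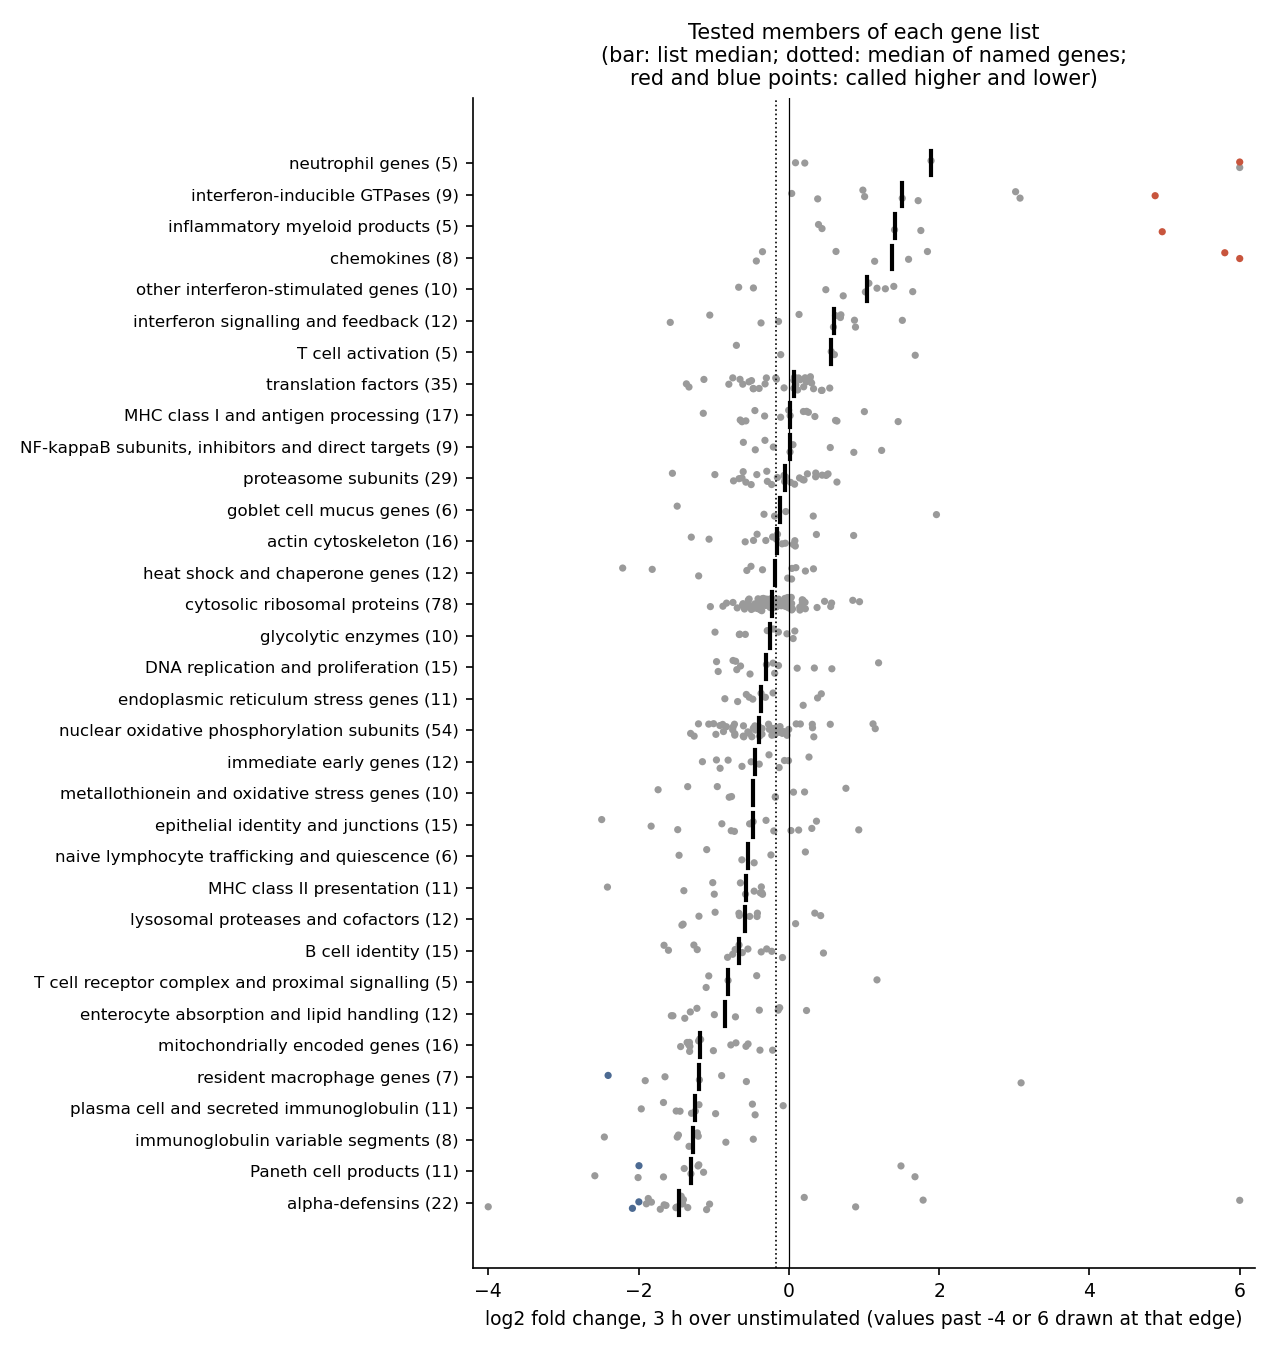
Log2 fold changes of the tested members of each gene list with 5 or more of them, ordered by the list's median (black bar), with the number tested in brackets. Medians run from 1.89 for neutrophil genes to -1.46 for alpha-defensins, the dotted line marks the median of named genes (-0.17), and coloured points are called genes.

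Markers of cell types were compared as CPM taken over named protein-coding counts only. Paneth markers were 23038 to 36139 unstimulated and 8722 to 14580 at 3 h, plasma cell markers 6088 to 10000.2 and 2174 to 4848, and macrophage markers 463 to 872 and 139 to 463. All 3 sums were lower in every library at 3 h, the last by a margin of under 1. Neutrophil markers were 7.72 to 79.3 and 185 to 865, higher in every library. Of their 88 counts at 3 h, S100a9 held 47 and S100a8 27. The summed level of the wider list of 17 neutrophil genes overlapped between groups. Eosinophil markers (Epx, Prg2, Ccr3) had 25 counts unstimulated and 1 at 3 h. The wider list of 15 eosinophil and mast cell genes did not show such a drop, with 173 counts unstimulated and 74 at 3 h. Its summed TMM-normalized CPM overlapped between groups, with a ratio of means of 0.853. Il5ra, the 1 tested member of that list, was at -0.33 ± 0.56, with groups that overlapped. T cell, epithelial, B cell, stromal, endothelial and red cell markers overlapped between groups. Red cell genes were highest in replicate 4 at 3 h, where Hbb-bs had 41.6 CPM against 1.31 to 16.7 in the other 3, and their part in the results was not tested.

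**Figure D4:**
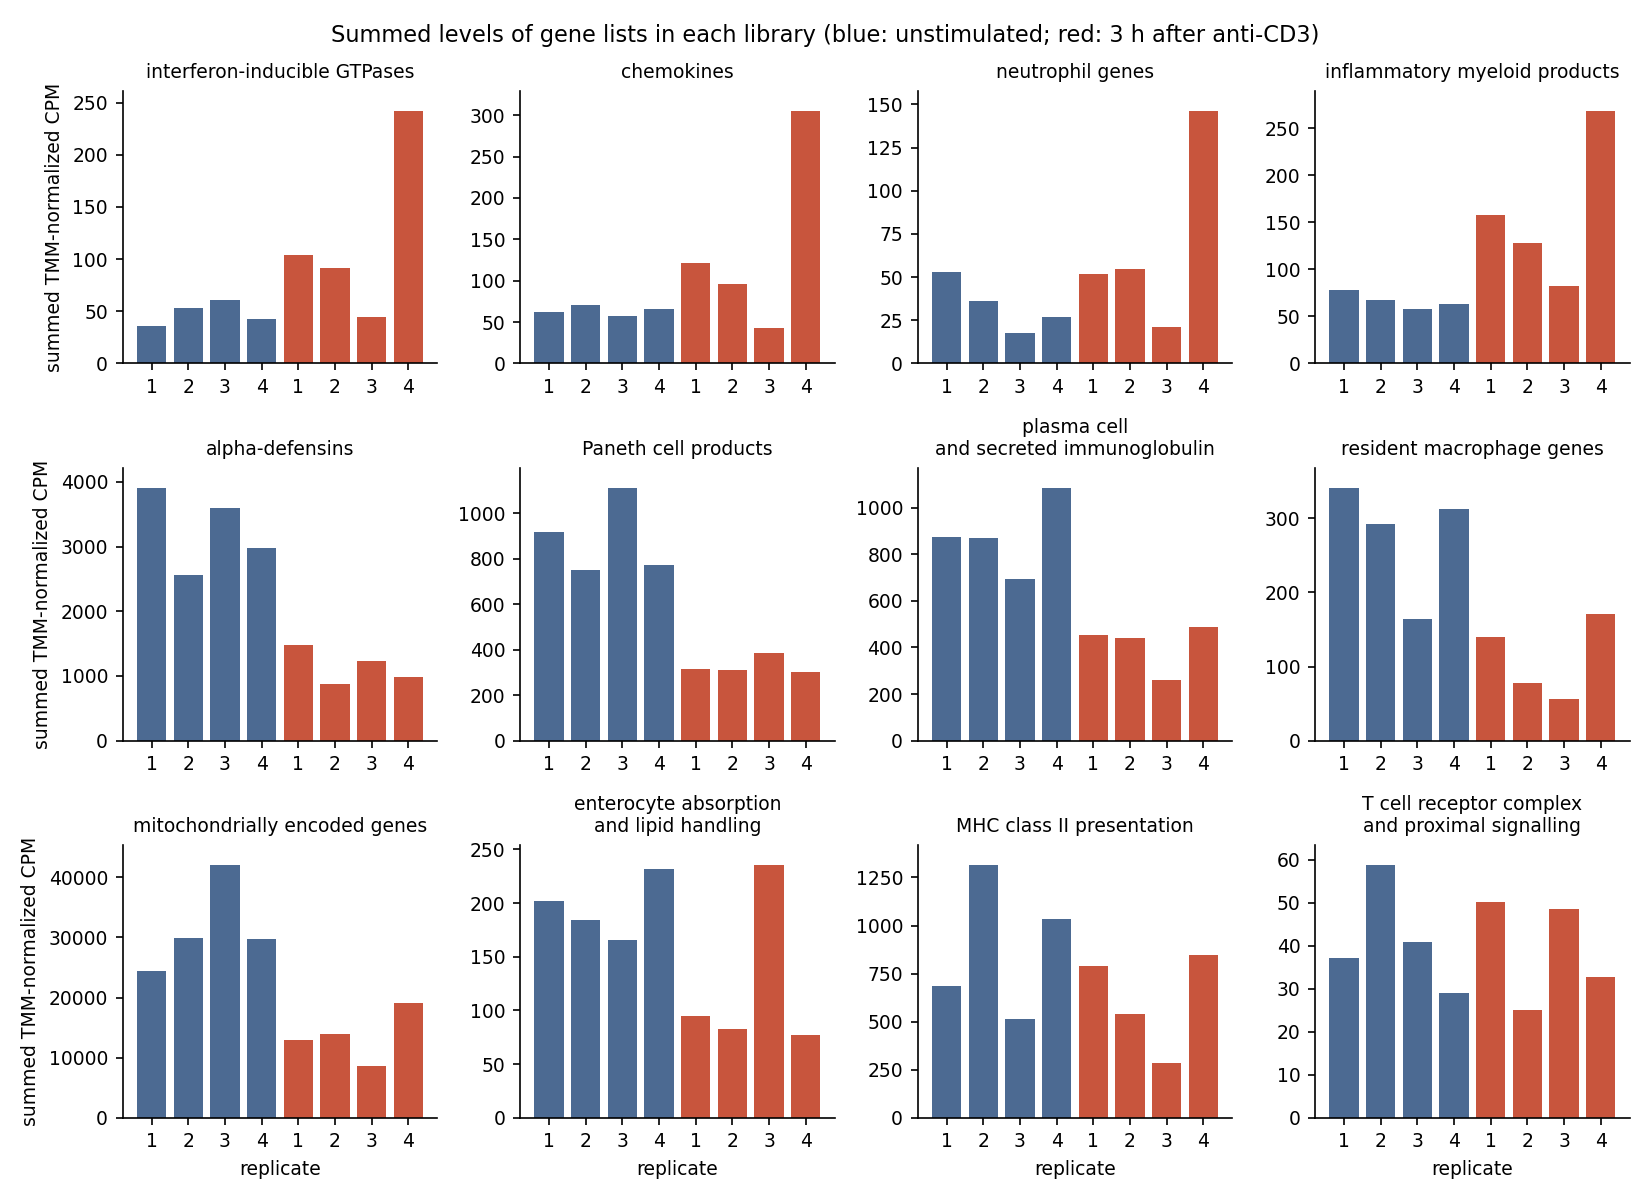
Summed TMM-normalized CPM of 12 gene lists in the 4 unstimulated libraries (blue bars) and the 4 at 3 h (red bars), numbered by replicate. Interferon-inducible GTPases, chemokines and neutrophil genes peak in replicate 4 and are low in replicate 3 at 3 h, whereas alpha-defensins, Paneth cell products, secreted immunoglobulin and mitochondrial genes are below the unstimulated range in all 4.

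Several leading genes belonged to none of these groups. Sprr2a2, a small proline-rich protein of stressed epithelium, had 0.826, 1.75, 6.66 and 6.24 CPM unstimulated and 72.6, 24.3, 14.5 and 20.2 at 3 h, with no overlap (3.01 ± 0.75, adjusted p = 0.0852). It lies in a cluster of near-identical copies. G0s2, an inhibitor of the triglyceride lipase ATGL, had 0 to 6.24 CPM and then 9.20 to 51.7 (3.03 ± 0.77, adjusted p = 0.0959). Hhat, an acyltransferase for hedgehog proteins, had 0.826 to 3.41 CPM and then 7.89 to 18.3 (2.32 ± 0.64, adjusted p = 0.145). These 3 did not overlap between groups, replicate 3 included. Mxd1, a MYC antagonist, was at 2.36 ± 0.65 and had 61.8 CPM in replicate 4 against 6.57 to 13.8 in the other 3. The leukocyte receptor genes Lilr4b (2.36 ± 0.77) and Lilrb4a (2.34 ± 0.81), which are close paralogs, the sialyltransferase gene St6galnac4 (2.10 ± 0.75) and the ubiquitin ligase gene Rnf213 (1.94 ± 0.72) overlapped between groups.

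On the lower side, Tbc1d10c, which encodes a Rab GTPase-activating protein of lymphocytes, had 11.6, 12.7, 6.66 and 4.54 CPM unstimulated and 0, 0, 1.31 and 0 at 3 h. These were 64 counts and 1, a ratio of 30.6 lower (5.3 to 1227, counting error only, adjusted p = 0.126). Pnliprp2, a lipase, had 11.4 to 16.9 CPM and then 0.761 to 6.31 (-2.35 ± 0.65, adjusted p = 0.145). Acp5, the tartrate-resistant acid phosphatase of macrophages and osteoclasts, was at -2.71 ± 0.77 and Fuca1, a lysosomal fucosidase, at -2.76 ± 0.80. Gak, a kinase of clathrin uncoating, had 44 counts and 2, and Pold1, the catalytic subunit of DNA polymerase delta, 44 and 3. Plcg2, the phospholipase C of B cell receptor signalling, was at -2.71 ± 0.88 (adjusted p = 0.349).

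The same contrast in propyzamide-treated mice used 8 other libraries, with no sample shared. There, edgeR called 6 genes higher (0.158%) and 21 lower (0.553%). All 20 leading higher genes of the vehicle comparison had positive fold changes with propyzamide, against 46.0% of the 969 named genes that were positive with vehicle. All 20 leading lower genes had negative fold changes there, against 79.0% of the 1496 that were negative. The filter on low counts used the propyzamide libraries too. On the 8 compared vehicle libraries alone, only Acod1 of the 7 called higher genes passed it. Ifi47, S100a8, Hhat, Cd14, Igtp and Lilr4b of the other leading higher genes did not pass it either. Nor did Tbc1d10c, Acp5, Fuca1, Gak, Defa32, Pold1 and Plcg2 of the leading lower genes. The signs with propyzamide of the genes that did not pass are therefore not independent of how they entered the test. The counts of 20 are for this reason no separate test of the vehicle result. Of the 7 genes called higher with vehicle, Gbp2 (3.46 ± 0.79), S100a9, Ccl24 (5.41 ± 1.09) and Serpina3g (4.36 ± 0.81) were called with propyzamide, and of the 4 called lower, Itln1 (-1.67 ± 0.41, adjusted p = 0.0478). The other 3 called lower genes had adjusted p-values of 0.0509 (Selenop), 0.0525 (Defa23) and 0.0701 (Defa39). Lyz1 was called there at -2.12 ± 0.41, Defa24 at -1.74 ± 0.40, Mptx2 at -4.01 ± 0.87 and mt-Co1 at -1.32 ± 0.32 (adjusted p = 0.0476).

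The test of the difference between vehicle and propyzamide called 0 of 3799 genes (0%) in edgeR, with 123 at an unadjusted p under 0.05 and a smallest adjusted p of 0.091. Among the called genes the largest differences were those of Gzmb (4.50 ± 0.83 with vehicle and 1.74 ± 0.73 with propyzamide, unadjusted p of the difference 0.0207, adjusted 0.997) and Acod1 (4.97 ± 0.93 and 2.05 ± 0.81, unadjusted p 0.026). The 3 h libraries with propyzamide carry another i5 index than the other 3 groups, so this test cannot tell the index from the treatment. The medians of the lists, with vehicle and with propyzamide in turn, were 1.51 and 2.46 for interferon-inducible GTPases, -1.46 and -1.66 for alpha-defensins, -1.30 and -1.67 for Paneth cell products, -1.18 and -1.35 for mitochondrial genes, and -0.85 and -1.87 for enterocyte genes. Over all tested named protein-coding genes the medians were -0.17 and -0.42, and 69.2% of these genes were negative with propyzamide. Interferon signalling genes were at 0.61 and 0.00 and other interferon-stimulated genes at 1.04 and 0.38. Of 34 lists with 5 or more tested members, 3 had medians of opposite sign: the T cell receptor complex (-0.81 and 0.79), translation factors (0.07 and -0.575) and NF-kappaB genes (0.02 and -0.01). These differences between lists were not tested. Of the 5 tested T cell receptor genes, 0 passed the filter on the 8 compared vehicle libraries alone.

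**Figure D5:**
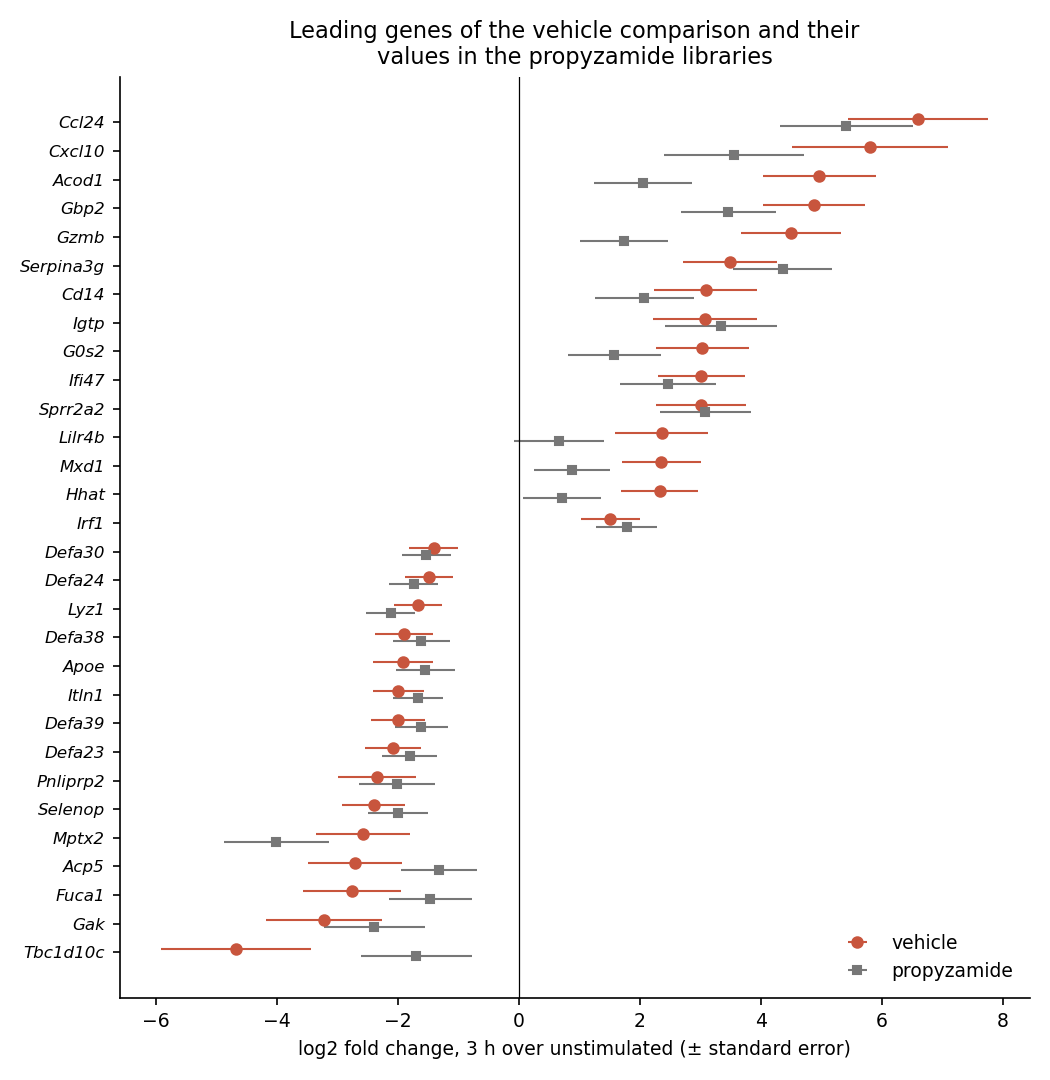
Log2 fold changes at 3 h over unstimulated, with standard errors, of 30 genes of the vehicle comparison, the 15 leading ones in each direction among those with counts in both groups. Red circles are vehicle and grey squares propyzamide, and all 30 genes have the same sign in both. The filter on low counts used both sets of libraries.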

How the data were processed

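RNA was measured in 24 libraries, 4 in each of 6 groups, of which the 8 vehicle libraries at 0 and 3 h are compared here. Per the submitters' processing notes, the reads were quantified with kallisto, with no version stated, on GRCm38. The authors deposited expected counts (estimated counts per transcript) for 142604 transcripts, per the file headers. TPM values stand beside them in the deposited tables and served only to recompute the shares of gene classes. A deposited estimate can divide reads between near-identical transcripts.

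Expected counts were added up over the transcripts of each of 55401 gene IDs and rounded. Symbols are those in the deposited tables, and positions are from GENCODE M21 of GRCm38 by gene ID, for 55141 genes. edgeR 4.0.16 in R 4.3.3 was fitted to all 24 libraries, with 1 coefficient per group, TMM factors and a filterByExpr filter, and its quasi-likelihood test was adjusted by Benjamini-Hochberg over 3799 genes. Every adjusted p of a gene comes from this test. The fit was tested on simulated data. Levels are TMM-normalized CPM, and errors of fold changes are standard errors. Where a group had no count of a gene, 3 counts over that group stood in as the floor, and intervals have 95% confidence. Shares were tested with exact permutation over 70 labelings. Satellite-like models share at least 5% of their 31-base stretches with Gm10800.

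The genes named are those called, the next by smallest p up to 20 in each direction, and up to 3 members of each of 44 gene lists with an unadjusted p of 0.05 or less, or else the 1 member with the smallest p. Cell type markers were a fixed list, and the other genes named were chosen after their values were seen, among them C1qb, Jchain, Igha, Reg3b, Epcam, Krt19, Olfm4, H2-Ab1, Cxcr2, Retnlg, Fabp1 and Cd69. The comparison, lists and rules were chosen with earlier results of these data known, so the lists carry no test and are described by counts and medians beside those of all genes. Replicate numbers follow the record order and pair nothing. Alternatives were RLE normalization, no filter, named protein-coding genes only, only the groups compared, no deepest library, DESeq2 1.42.0, limma-voom of limma 3.58.1 with quality weights, and leaving out each library with the set of genes held fixed. Shares were also taken of TPM, and sums of lists relative to named protein-coding counts.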

Additional observations from a re-analysis of the deposited data

Results flagged for a closer look

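In 19 of 288 groups of 4 values, 1 library lay far from the other 3 by Dixon's test, which chance does in about 1 in 20. Of these, 5 were in replicate 4 at 3 h, 4 in replicate 3 and 3 in replicate 1, and 7 were in the unstimulated group.

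Replicate 4 at 3 h had 61.8 CPM of Mxd1, 79.5 of Il1rn, 6.31 of Ighv1-53 and 7.57 of Pmaip1, each above the other 3, and its T cell cytokines summed to 8.83 CPM, below them. Replicate 3 at 3 h had 1.31 CPM of Tbc1d10c where the others had 0, and 5.26 of H2-Ob against 10.1 to 10.7. Its Paneth cell products summed to 384 CPM and its enterocyte genes to 235, both above the other 3. Replicate 1 at 3 h had 72.6 CPM of Sprr2a2, a sum of 126 for crypt base genes and 6.47% of its counts in named protein-coding genes, each above the rest.

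Among unstimulated libraries, replicate 1 alone had counts of Ccl24 and of Cxcl10, at 0.826 CPM each, which is 1 count, and its T cell cytokines summed to 4.13 CPM, below the others. Replicate 2 had 21.5 CPM of Ctsh and 11.4 of Hspe1, replicate 3 had 0 of Ccl4 and replicate 4 had 5.68 of Serpina3g.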

How the results depend on the processing

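The counts of called genes depended on the processing. For higher and lower genes in turn, they were 7 and 7 with RLE normalization, 21 and 36 with no filter on low counts, 15 and 6 for named protein-coding genes alone, 2 and 24 with only the groups compared, 10 and 12 without the deepest library, 15 and 19 with DESeq2 and 1 and 17 with limma-voom, which kept 0 of the 7 higher genes. Leaving out each library gave 4 to 11 higher and 0 to 1 lower. The cause was not tested, though fits with fewer libraries or other genes also test other sets. The difference between vehicle and propyzamide gave 21 genes with no filter, 1 without vehicle unstimulated replicate 2 and 0 otherwise. The mitochondrial share differed by -2.05 percentage points, and by -2.44 to -1.76 with a library left out, with p = 0.0571 by the exact permutation test without any 1 of the 3 h libraries. Of 1373 recomputed fold changes of single genes, 1243 kept direction and side of the threshold, 76 passed it, 52 lost it and 2 reversed, both for Vim (-0.022 with limma-voom, and between -0.32 and 0.94 with a library left out). The median of all genes moved from -0.04 to -0.26 with no filter. No paired analysis was possible because the replicates carry no number in the labels. Of 627 recomputed medians of lists, 584 kept their sign and 24 moved by more than the spread between libraries. Depth limits many lists: 0 of 16 T cell cytokines and 0 of 15 enteroendocrine and tuft cell genes could be tested.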
